A study of Mus musculus with 8 samples.

Results

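The genes described here are the apolipoproteins and the machinery that loads and exports lipid with them, 10 of the 23361 genes in the expression table, taken by symbol alone: Apoa1, Apoa2, Apoa4, Apob, Apoc1, Apoc2, Apoc3, Apoe, Apobec1 and Mttp. They were measured by RNA sequencing in cancers of the mouse gastric squamous-columnar junction (SCJ), the border between the squamous forestomach and the glandular stomach, and in normal SCJ. The 5 cancers, labelled Trp53-/-Rb1-/-, came from mice homozygous for loxP/loxP alleles of both Trp53 and Rb1, with the knock-in Lgr5-eGFP-IRES-CreERT2 and the Ai9 tdTomato reporter. These mice received 3 intraperitoneal injections of tamoxifen at 6 to 10 weeks of age, and tumors were dissected along their tdTomato borders at least 250 days after induction. The 3 controls were SCJ tissue of wild type stomachs from mice of matching age, and the methods give tamoxifen to the control mice of the induction experiments without saying whether these 3 were among them. Cre was driven from the Lgr5 locus, so the deletion was limited to Lgr5+ cells and their progeny, while the RNA came from whole minced tissue and holds every cell type present. Nothing says which mouse gave which sample, so the p-values measure the spread between these samples alone.

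Apolipoproteins are the protein shell of lipoproteins, the particles that carry triglyceride and cholesterol in lymph and blood. Apob is the scaffold of chylomicrons and VLDL, and it is lipidated in the endoplasmic reticulum by the microsomal triglyceride transfer protein encoded by Mttp, while Apobec1 is the cytidine deaminase that edits Apob mRNA into its short form. Apoa1 and Apoa2 are the main proteins of HDL, Apoa4 is a chylomicron and HDL protein, Apoc1, Apoc2 and Apoc3 tune lipases and receptor uptake, and Apoe is the ligand by which cells take up lipoprotein remnants. Liver and intestinal absorptive cells are the classical sites of synthesis of most of them, whereas Apoe is also made by macrophages and other cells.

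Of the 10 genes, 6 lie in a pair of clusters. The deposited table places Apoc2 (chr7:19671579-19676864), Apoc1 (chr7:19689481-19692658) and Apoe (chr7:19696244-19699166) within 27.6 kb of chromosome 7 (mm10), all on the minus strand. On chromosome 9, Apoa1 (chr9:46228630-46230466, plus strand), Apoc3 (chr9:46233051-46235297, minus strand) and Apoa4 (chr9:46240844-46243458, plus strand) span 14.8 kb. The others stand alone, at chr1:171225054-171226379 for Apoa2, chr12:7977677-8016839 for Apob, chr6:122577792-122602444 for Apobec1 and chr3:138089855-138143388 for Mttp. In the GENCODE annotation, Apoc2 overlaps the protein-coding gene Gm44805 on its own strand, and Apoa4 and Mttp overlap genes on the opposite strand, which makes the reads assigned to these 3 genes less certain.

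The promoters of Apoe, Apoa1 and Apob are shown because these are the member that rose, the member with the highest level in normal tissue and the member that fell. Each is 250 bases before and 50 after the annotated start, read 5' to 3' on the gene's strand from RefSeq (GRCm38.p6), with capitals marking a TATAAA match. They lie at chr7:19699139-19699438 (minus strand), chr9:46228380-46228679 (plus strand) and chr12:7977427-7977726 (plus strand).
Apoe: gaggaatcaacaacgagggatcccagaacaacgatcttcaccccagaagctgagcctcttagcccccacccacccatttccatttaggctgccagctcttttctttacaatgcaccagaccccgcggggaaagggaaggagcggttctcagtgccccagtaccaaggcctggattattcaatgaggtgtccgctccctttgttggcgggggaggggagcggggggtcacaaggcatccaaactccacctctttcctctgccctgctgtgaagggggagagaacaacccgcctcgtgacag
Apoa1: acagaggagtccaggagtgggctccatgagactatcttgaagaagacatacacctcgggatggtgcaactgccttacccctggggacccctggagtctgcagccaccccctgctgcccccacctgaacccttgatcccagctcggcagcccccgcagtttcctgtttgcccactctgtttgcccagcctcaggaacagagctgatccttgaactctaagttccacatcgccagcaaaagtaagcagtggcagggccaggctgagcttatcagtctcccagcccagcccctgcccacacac
Apob: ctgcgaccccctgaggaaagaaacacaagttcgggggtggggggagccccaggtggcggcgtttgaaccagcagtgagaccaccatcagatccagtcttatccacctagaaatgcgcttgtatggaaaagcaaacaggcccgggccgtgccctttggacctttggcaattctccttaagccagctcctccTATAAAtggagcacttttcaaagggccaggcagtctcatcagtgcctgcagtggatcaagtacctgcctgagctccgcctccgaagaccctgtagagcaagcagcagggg
RefSeq windows were found for 8 of the 10 genes. Searched on both strands for TATAAA, CAAAGTCCA (HNF4), TGTTTAC (FOXA) and TTGCGCAA (CEBP), the Apob window held TATAAA at position -60 from the start, and the Apoe and Apoa1 windows above held no match. RefSeq gives Apoe 2 further windows, from starts inside the gene. Of these, 1 held TATAAA at -96 and, on the opposite strand, at -100, and the other held TGTTTAC at -5 on the opposite strand. TATAAA occurred in 13.6% of 32851 windows of the same length, CAAAGTCCA in 0.475%, TGTTTAC in 3.65% and TTGCGCAA in 0.183%. Among the other genes, Apoa2 held TATAAA at -212 and TGTTTAC at -77, and Apobec1 held TATAAA at -212 on the opposite strand. These are letter matches only.

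Levels are given in FPKM (fragments per kilobase of transcript, scaled per library), which the deposited table gives as whole numbers. The scaling option used in Cuffnorm is not stated. FPKM summed over all genes ranged from 403569 to 573858 in the cancers and from 887141 to 992550 in the controls, and rescaling every library to the same sum (TPM) moved the median log2 difference of all genes from -0.04 to 0.81. TPM is a share of the library sum, so very high genes lower the TPM of all others in that library. The control sums included colipase (Clps) at 74893 to 148172 FPKM, against 3 to 9087 FPKM in cancers, and the glandular genes listed below. Which scale is nearer to RNA per cell was not tested. The TPM difference or its adjusted p is therefore given below for each apolipoprotein or role list gene named whose direction or call differed by TPM. Of the 12 neuroendocrine marker genes, 12 were higher in the cancers (limma, adjusted p under 0.05), with summed levels of 8549 to 18938 FPKM against 136 to 199. The glandular list (12 genes) summed to 159127 to 241515 FPKM in controls and to 781 to 80800 in cancers, and the squamous list (10 genes) to 2168 to 3730 FPKM in controls and 1 to 1760 FPKM in cancers, so the controls held both epithelia of the junction while cancer 1 held little of either.

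All 10 genes passed the filter on low levels, which asked for 1 FPKM or more in 3 or more of the 8 samples. With limma on log2(FPKM + 1) and adjustment over the 14357 genes tested, 2 of the 10 passed an adjusted p of 0.05, Apoe higher and Apob lower in cancer. Over all genes tested, 34.5% passed, 16.2% higher and 18.3% lower, so 2 of 10 lay below the background share. The median log2 difference was -0.73 over the 10 genes and -0.04 over all genes. The values of cancers and controls did not overlap for 2 of the 10 genes (Apoe and Apoa1), against 34.1% of all genes.

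**Figure D1:**
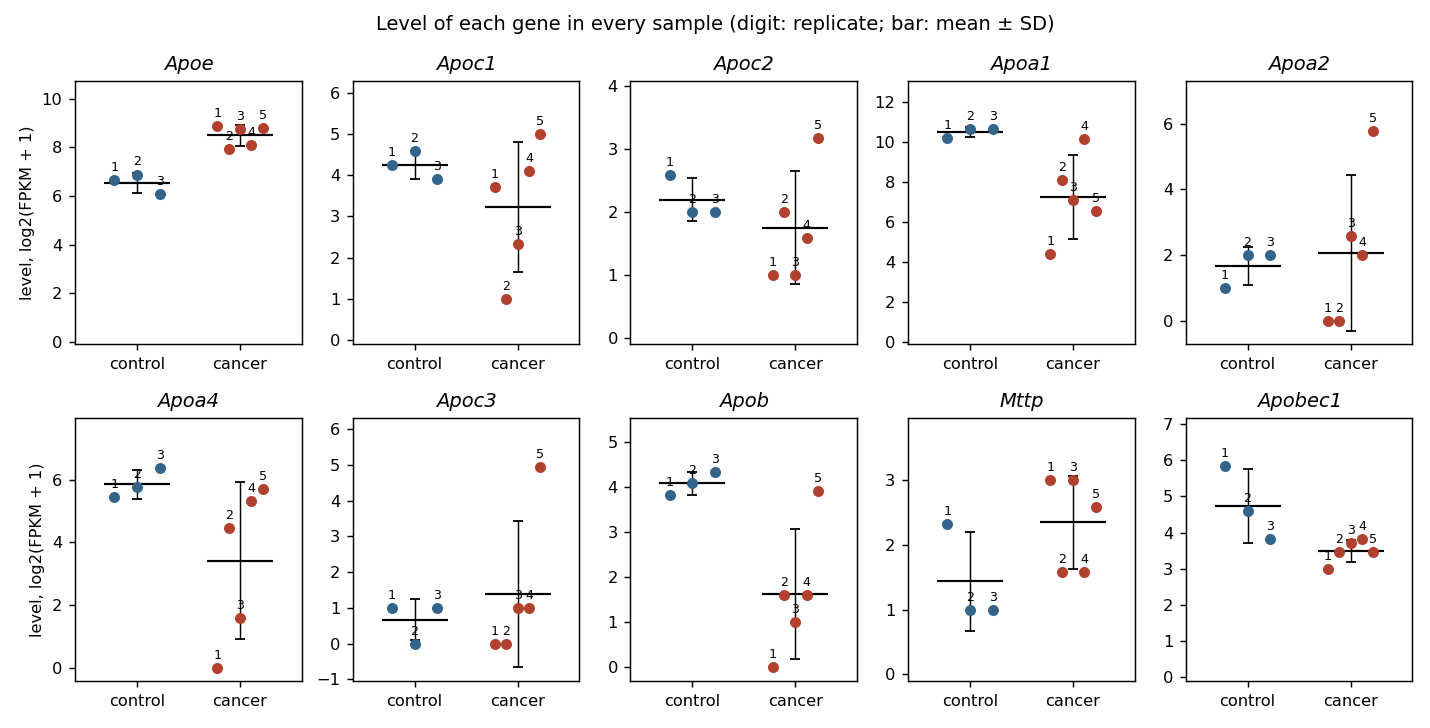
Level of each of the 10 genes as log2(FPKM + 1) in the 3 controls (blue) and 5 cancers (red), 1 panel per gene with its own vertical axis. Digits are replicate numbers, horizontal lines group means and vertical bars the SD; Apoe lies higher in all 5 cancers, Apoa1 lower in all 5, and cancer 5 is the highest sample for Apoa2, Apoc1, Apoc2 and Apoc3.

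Apoe was the member that rose. Its level was 470, 246, 433, 276 and 438 FPKM in cancers 1 to 5 and 99, 117 and 67 FPKM in controls 1 to 3. The lowest cancer stood above the highest control. The means were 373 ± 103 FPKM (SD, n = 5) and 94.3 ± 25.3 FPKM (SD, n = 3), and the log2 difference was 1.96 (SE 0.29, limma adjusted p = 0.0036), 3.89-fold on the log2(FPKM + 1) scale. The two-sided exact permutation test gave p = 0.018, the smallest that 56 splits allow. Ordered by level within each sample, Apoe was gene 112 to 306 of the table in the cancers and gene 729 to 1341 in the controls. The TPM difference was 2.93 (adjusted p = 0.0011), and taken relative to the median of all genes the TPM difference was 2.12. Leaving out each sample in turn gave 1.73 to 2.13 with adjusted p of 0.0035 to 0.020. In bulk tissue, a change in the share of cells of a type and a change in RNA per cell cannot be told apart.

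Some macrophage genes were also higher in the cancers. Of 15 tested macrophage markers, 7 were higher in the cancers and 0 lower (limma, with 13 higher and 0 lower at an unadjusted p under 0.05), and the list summed to 195 to 453 FPKM in cancers and 56 to 90 FPKM in controls. C1qa, a complement subunit made by tissue macrophages, was listed at 62, 56, 117, 47 and 51 FPKM against 13, 15 and 10, and Lyz2, the lysozyme of myeloid cells, at 252, 89, 84, 27 and 63 FPKM against 37, 23 and 13. The groups overlapped for Lyz2, which did not pass (adjusted p = 0.068). Over cancers 1 to 5 the list summed to 453, 277, 435, 195 and 272 FPKM, an order that differed from that of Apoe below cancer 1, and Lyz2 alone gave 252 of the 453 FPKM in cancer 1. Trem2, a lipid receptor of macrophages, stood at 3 to 5 FPKM in the cancers and 1 FPKM in each control. Their part in the Apoe difference was not tested.

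The other genes of the chromosome 7 cluster did not pass the test. Apoc1, an inhibitor of lipoprotein uptake, was at 12, 1, 4, 16 and 31 FPKM in the cancers and 18, 23 and 14 FPKM in the controls. Its groups overlapped, with cancer 5 above and cancers 1, 2 and 3 below every control (log2 difference -1.02, SE 0.84, adjusted p = 0.36). The difference was -0.17 by TPM and -0.47 by FPKM without cancer 2. Apoc2, the activator of lipoprotein lipase, was at 1, 3, 1, 2 and 8 FPKM against 5, 3 and 3. Its log2 difference of -0.44 (SE 0.50, adjusted p = 0.51) became 0.26 by TPM, and these levels are a few FPKM, where rounding to whole numbers is coarse.

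Apoa1 had the highest level of the 10 genes in normal SCJ, with 1203, 1641 and 1622 FPKM in controls 1 to 3, the 32nd to 71st highest gene of the table. Its level in cancers 1 to 5 was 20, 276, 139, 1147 and 92 FPKM. All 5 cancers were below the lowest control, cancer 4 by a small margin, and the highest cancer held 57.4 times the level of the lowest. The log2 difference was -3.26 (SE 1.12), 9.57-fold lower on that scale, and did not pass the test (limma adjusted p = 0.056, exact permutation p = 0.054). By TPM it was -2.29 (adjusted p = 0.072). Without cancer 4 it was -3.98 with an adjusted p of 0.014, and without each of the other samples in turn it did not pass (adjusted p of 0.063 to 0.14), the difference being -2.54 without cancer 1. With all samples it passed when only genes with a mean FPKM of at least 5 were tested (adjusted p = 0.042) and with array weights, which weight each sample by its fit (adjusted p = 0.0042).

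Genes of the gastric glands also varied widely among the cancers. Atp4b, the beta subunit of the parietal cell proton pump, was listed at 0, 603, 106, 1336 and 41 FPKM in cancers 1 to 5 and at 2328, 3906 and 3584 FPKM in the controls. Its order over the 5 cancers was that of Apoa1, with cancer 4 highest and cancer 1 lowest, and it was picked after its values were seen. The summed glandular list ran 781, 80800, 6165, 55875 and 16829 FPKM over the cancers, a different order with cancer 2 highest. Of its 12 genes, 2 passed the test, Gkn1 and Cldn18, both lower, where 18.3% of all genes were lower. The list median was -4.05. Every cancer was below every control for Muc5ac, Tff1, Gkn1, Gkn2, Gif, Atp4a, Atp4b and Cldn18, and the groups overlapped for Muc6, Tff2, Gkn3 and Pgc. The defining gene Pgc, pepsinogen, was listed at 28832 FPKM in control 1 and at 0 in controls 2 and 3, so an exact 0 in this table can be a failed estimate. The part of gland content in the Apoa1 difference was not tested.

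Apoa4 shared the pattern in part. It stood at 43, 53 and 81 FPKM in the controls and at 0, 21, 2, 39 and 51 FPKM in the cancers. Cancers 1 to 4 were below every control and cancer 5 was within the control range (log2 difference -2.44, SE 1.32, adjusted p = 0.18, with -1.80 by TPM). Without cancer 1 the difference was -1.59.

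Apob was the member that fell. Its level was 13, 16 and 19 FPKM in the controls and 0, 2, 1, 2 and 14 FPKM in the cancers. Cancers 1 to 4 were below every control, and cancer 5 lay above control 1. The log2 difference was -2.46 (SE 0.77, limma adjusted p = 0.042), while the exact permutation test gave p = 0.071. By TPM the difference was -1.93 with an adjusted p of 0.099. The call rested on the full set of samples, since it was lost on leaving out any single sample other than cancer 5 (adjusted p of 0.063 to 0.12), and without cancer 5 it was -3.03 with an adjusted p of 0.0052.

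Mttp, which lipidates Apob, did not pass the test on the FPKM scale. Its level was 7, 2, 7, 2 and 5 FPKM in the cancers and 4, 1 and 1 FPKM in the controls, with cancers 1, 3 and 5 above every control. The log2 difference was 0.91 (SE 0.48, adjusted p = 0.17), and by TPM 1.76 with an adjusted p of 0.035. Relative to the median of all genes it was 0.95 on both scales.

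Apobec1 was at 56, 23 and 13 FPKM in the controls and 7, 10, 12, 13 and 10 FPKM in the cancers. No cancer exceeded the lowest control, and cancer 4 equalled it. The log2 difference of -1.26 (SE 0.42) gave an adjusted p of 0.052 and an exact permutation p of 0.036, and it was -0.35 by TPM. Without control 3 it was -1.72 with an adjusted p of 0.026, and without control 1 it was -0.71 with an adjusted p of 0.13. The controls ran from 13 to 56 FPKM and the cancers from 7 to 13 FPKM.

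Apoa2 and Apoc3 were near 0 in most samples and high in cancer 5. Apoa2 was at 0, 0, 5, 3 and 54 FPKM in the cancers against 1, 3 and 3 in the controls (log2 difference 0.41, SE 1.27, adjusted p = 0.82). Apoc3, an inhibitor of lipoprotein lipase, was at 0, 0, 1, 1 and 30 FPKM against 1, 0 and 1 (log2 difference 0.72, SE 1.10, adjusted p = 0.62). Both signs depended on cancer 5, and without it the differences were -0.52 and -0.17. Apoc3 stayed at 0 or 1 FPKM in 4 of the 5 cancers, while its neighbours in the chromosome 9 cluster, Apoa1 and Apoa4, reached 1147 and 39 FPKM in cancer 4.

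Hepatocyte genes were also highest in cancer 5, for 19 of the 20 listed. Albumin (Alb) was at 16, 18, 58, 1 and 266 FPKM in cancers 1 to 5 and at 1 FPKM in each control. Fibrinogen genes Fga and Fgg were at 65 and 93 FPKM in cancer 5 and at 0 in the 7 other samples, and 8 of the 20 genes were above 0 in cancer 5 alone. The list summed to 4579, 1576, 1969, 1203 and 4677 FPKM in the cancers and 73, 102 and 85 FPKM in the controls, most of it Ahsg (fetuin) and Ttr (transthyretin), and 3 of the 10 tested rose (Ahsg, Ttr and Tat). Their part in the levels of Apoa2, Apoc1, Apoc2 and Apoc3 in cancer 5 was not tested. Enterocyte genes summed to 167 to 303 FPKM in cancers and 361 to 516 FPKM in controls, 5 of the 16 (Sis, Lct, Treh, Cdx1 and Mep1a) were at 0 in all samples, and 1 of 9 tested passed (lower), with 4 lower and 0 higher at an unadjusted p under 0.05. Adipocyte genes were highest in cancer 1, where they summed to 734 FPKM, with a range of 19 to 60 FPKM over cancers 2 to 5 and of 123 to 179 FPKM over the controls, and limma called 0 of the 3 tested, also at an unadjusted p under 0.05. Of the yolk sac and fetal list, 2 of 5 tested were higher and 1 lower, Rbp4 reached 917 FPKM in cancer 1, Afp was at 2 FPKM or less everywhere, and Amn and Cubn were at 0 in all samples.

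**Figure D2:**
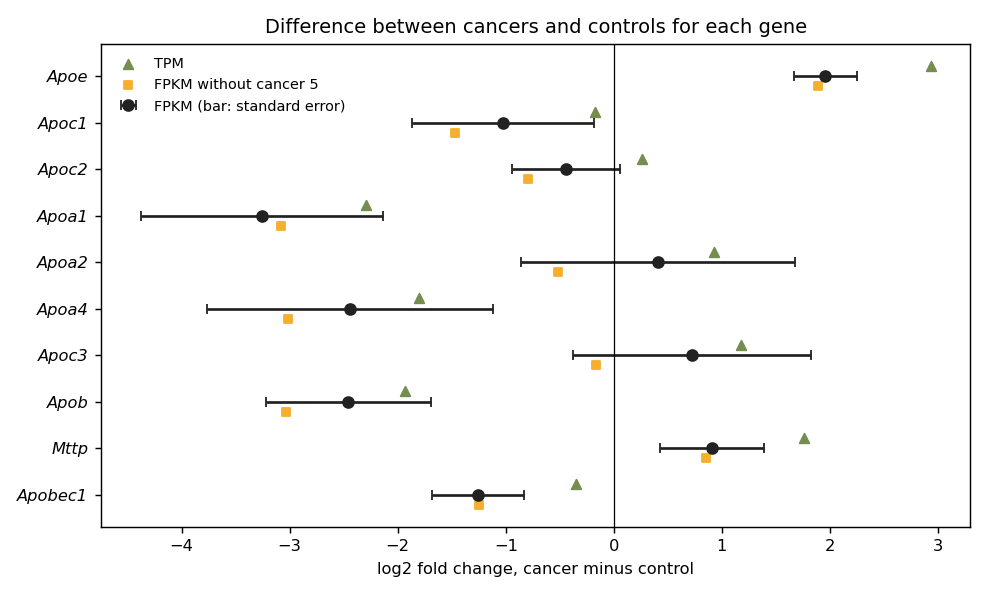
Log2 difference, cancer minus control, for each of the 10 genes on the FPKM scale (circles, bars are the standard error), on the TPM scale (triangles) and on the FPKM scale without cancer 5 (squares). Apoe lies to the right of 0 and Apoa1, Apoa4 and Apob to the left in all 3, while Apoa2 and Apoc3 cross 0 without cancer 5 and Apoc2 crosses it by TPM.

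FPKM is a level per length, so the 8 apolipoproteins could be set beside each other within a sample, as shares that no library scaling changes. Their summed level was 1383, 1856 and 1810 FPKM in the controls and 503, 549, 586, 1486 and 718 FPKM in the cancers. Apoa1 made up 87.0%, 88.4% and 89.6% of it in the controls and 3.98%, 50.3%, 23.7%, 77.2% and 12.8% in cancers 1 to 5. The Apoa1 share was lower in every cancer than in any control. Apoe made up 7.16%, 6.30% and 3.70% in the controls and 93.4%, 44.8%, 73.9%, 18.6% and 61.0% in the cancers, each above the highest control. The ratio of Apoe to Apoa1 was 0.0413 to 0.0823 in controls and 0.241 to 23.5 in cancers, exceeding 1 in cancers 1, 3 and 5. Together Apoa1 and Apoe gave 93.3% to 97.6% of the sum in every sample but cancer 5, where it was 73.8% and Apoa2 gave 7.52%, Apoa4 7.10%, Apoc1 4.32% and Apoc3 4.18%. A share of a fixed sum rises when another member falls, so these shares are not independent of each other.

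**Figure D3:**
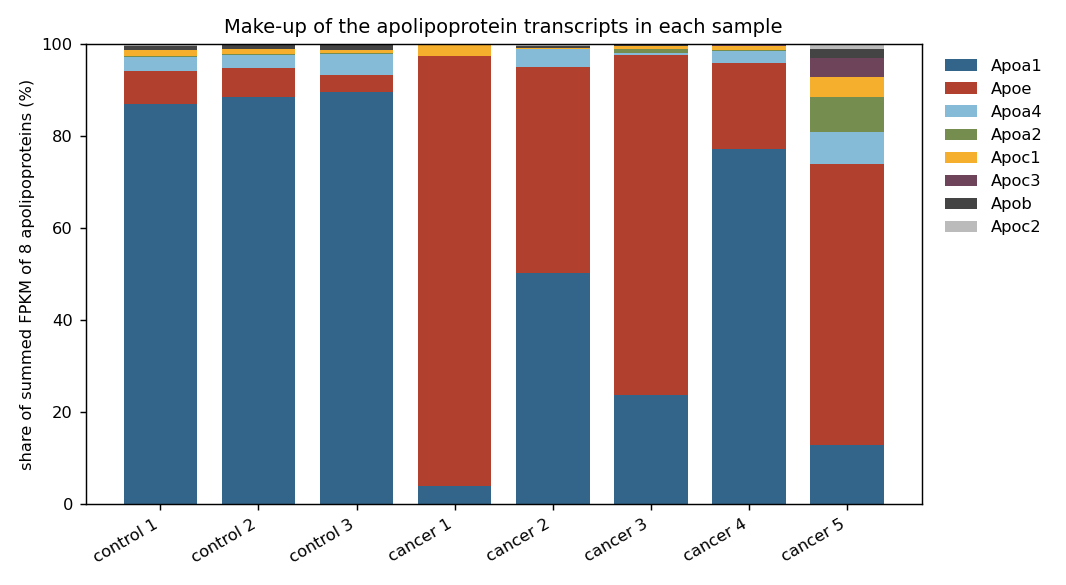
Share (%) of each of 8 apolipoproteins in their summed FPKM, 1 stacked bar per sample. Apoa1 (dark blue) fills 87.0% to 89.6% of the control bars, Apoe (red) is larger in every cancer bar than in any control bar, and cancer 5 holds visible shares of Apoa2, Apoa4, Apoc1 and Apoc3.

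Likeness of pattern was measured as the root mean square difference of log2(FPKM + 1), each gene centred on its own mean over the 8 samples, from 9126 genes with a mean FPKM of at least 5. A smaller value is a closer pattern, and the 3 closest genes are given as a description. For Apoe they were Wbp5 (0.114), Gucy1b3 (0.179) and H2-M3 (0.180). For Apoa1 they were Npw (0.333), Esrrg (0.405) and Fabp3 (0.461), and for Apob Krt80 (0.424), Cers3 (0.523) and Dhrs9 (0.576). Apoa4 lay closest to Scnn1a (0.368), Bglap3 (0.601) and Cfi (0.628). The nearest genes to Apoc3 were Apoa2 (0.712), Ambp (0.731) and Ddit4 (0.807), so a member of the family was the closest match of another in this case. Among genes over that mean, which Apoc3 is not, Apoa2 lay closest to Ceacam10 (0.825), Fgl1 (0.860) and Cd177 (0.894), all farther from it than Apoc3 was, and Apoc1 to Mreg (0.637), Vtn (0.711) and Gpr155 (0.738). For the remaining genes, the closest were Enpp1 (0.210), Fos (0.251) and Zfp36 (0.255) for Apoc2, Nt5c3 (0.279), Cutc (0.280) and Pstpip1 (0.282) for Apobec1, and Smc2 (0.224), Tapbpl (0.246) and Ctso (0.250) for Mttp.

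By TPM, 50% of all genes tested were higher and 3.68% lower, the background for the TPM counts over lists below. Further apolipoproteins showed a rise of Apof and of Saa3, an acute phase apolipoprotein. Of 21 listed, 11 were tested, 2 were higher and 2 lower by FPKM, with a median of -0.39, and 4 were higher and 0 lower by TPM (1 lower at an unadjusted p under 0.05). Apof, which modulates cholesteryl ester transfer, was at 68, 40, 46, 25 and 32 FPKM in the cancers and 2, 1 and 0 FPKM in the controls (log2 difference 4.49, SE 0.42, adjusted p = 0.00091). Saa3 rose from 0 to 2 FPKM to 12 to 71 FPKM (4.40, adjusted p = 0.0032). The genes that fell were Apol7a (-1.94, adjusted p = 0.020) and Apoo (-1.14, adjusted p = 0.039), at -1.11 and -0.19 by TPM with neither past the test. Another 7 of the list (Apoc4, Apoh, Apom, Apon, Saa1, Saa2 and Saa4) were above 0 in cancer 5 alone, at 2 to 88 FPKM.

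Of 25 lipoprotein assembly genes tested, 1 was higher and 10 lower (median -0.77), and by TPM 8 were higher and 4 lower, 5 of the 10 having turned above 0. Among those lower on both scales were Mogat1 (403, 232 and 318 FPKM in controls, 0, 55, 6, 67 and 7 in cancers), which makes diacylglycerol, and Dgat2 (183, 125 and 162 FPKM against 22, 61, 15, 36 and 35), which makes triglyceride. Their log2 differences were -4.74 (adjusted p = 0.029) and -2.31 (adjusted p = 0.0063), and Pla2g12b, which takes part in lipoprotein lipidation, was also lower (-3.08, adjusted p = 0.026). Mogat2, of the same enzyme class as Mogat1, was at 0.11 (adjusted p = 0.85). Gastric gland genes were low in the same cancers as Mogat1, with cancers 2 and 4 highest, and their part was not tested. Mia2, a cargo receptor at endoplasmic reticulum exit sites, was at -1.83 (adjusted p = 0.0062), and its TPM difference did not pass (adjusted p = 0.083). Sar1b, the GTPase of the coat that exports chylomicrons, was at -0.71 (adjusted p = 0.028) by FPKM and 0.25 by TPM. P4hb, the partner subunit of Mttp, was at -0.38 (adjusted p = 0.10) by FPKM and 0.59 (adjusted p = 0.032) by TPM. Pdia3, another disulfide isomerase, was the gene that rose (1.06, adjusted p = 0.018).

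Of the lipoprotein receptors and their regulators, 13 of 18 were tested, 3 were higher and 5 lower by FPKM (median -0.45), and 5 were higher and 0 lower by TPM, the same counts as at an unadjusted p under 0.05. Lrp8, an Apoe receptor, was at 6, 2, 6, 3 and 6 FPKM in the cancers and 1, 0 and 1 FPKM in the controls (1.73, adjusted p = 0.014). Mylip, a ubiquitin ligase, and Msr1, a macrophage scavenger receptor, were each 1.35 higher (adjusted p of 0.011 and 0.0033). Mylip was at 5 to 11 FPKM in the cancers and 2 to 3 FPKM in the controls. Msr1 was at 1 to 2 FPKM in the cancers and 0 in each control, where rounding is coarse. It met the filter only through the cancers, so its direction was fixed by the filter. The endocytic receptor Lrp1 was at -0.85 (adjusted p = 0.017) by FPKM and 0.06 by TPM. The sorting receptor Sorl1 (-1.42, adjusted p = 0.045) was at -0.52 by TPM and did not pass there. The HDL receptor Scarb1 was at 13 to 24 FPKM in cancers and 14 to 18 FPKM in controls (0.19, adjusted p = 0.49), and was higher by TPM (1.13, adjusted p = 0.011).

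Of the lipases and their regulators, 13 of 15 were tested, 3 were higher and 6 lower by FPKM (median -1.12), and 5 were higher and 6 lower by TPM. Clps, colipase, was at 74893, 148172 and 117206 FPKM in the controls and 3, 3043, 234, 9087 and 669 FPKM in the cancers (-7.94, SE 2.28, adjusted p = 0.032). Pnliprp2 (-4.58, adjusted p = 0.018), Pnliprp1 (-4.21, adjusted p = 0.0043) and endothelial lipase Lipg (-2.32, adjusted p = 0.0070) were also lower on both scales. Clps was lowest in cancer 1 and highest in cancers 2 and 4, as was the summed gastric gland list, whose part was not tested. Those that rose were Gpihbp1, which anchors lipoprotein lipase (1.77, adjusted p = 0.015), Gm6484, the symbol in the table for Angptl8 (1.63, adjusted p = 0.0071), and Angptl4, an inhibitor of that lipase (1.48, adjusted p = 0.019). Gpihbp1 was at 2 to 7 FPKM in cancers and 0 to 1 in controls, Gm6484 at 6 to 12 and 1 to 3, and Angptl4 at 3 to 6 and 0 to 2. Rounding to whole numbers is coarse at these levels.

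Among genes of cholesterol efflux and HDL remodelling, 11 of 13 were tested, 3 were higher and 1 lower by FPKM (median 0.73), and 5 were higher and 0 lower by TPM (6 and 0 at an unadjusted p under 0.05). The efflux transporter Abca1, which lipidates Apoa1, was at 8, 2, 6, 3 and 8 FPKM in the cancers and 1, 2 and 1 FPKM in the controls (1.35, adjusted p = 0.039). Abcg1, which exports cholesterol to HDL, was at 10, 3, 11, 3 and 6 FPKM against 2, 2 and 1 (1.38, adjusted p = 0.043). Npc2, a lysosomal cholesterol carrier, was at 0.73 (adjusted p = 0.039), and Cyp27a1, a sterol hydroxylase, at -0.89 (adjusted p = 0.027) by FPKM and -0.14 by TPM. The limma calls fell to 0 on leaving out cancer 1, cancer 3, control 2 or control 3, with 5, 4, 4 and 3 genes at an unadjusted p under 0.05.

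Of the partners of Apobec1 in Apob mRNA editing, A1cf was listed higher and Rbm47 lower in the cancers. A1cf was at 3, 1, 4, 1 and 2 FPKM in the cancers and 0 in each control (log2 difference 1.58, limma adjusted p = 0.011). It met the filter only through the cancers, so its direction was fixed by the filter and the p-value is no support for it. Rounding is also coarse at these levels. Rbm47, the other cofactor, was at 46, 41 and 55 FPKM in the controls and 13, 24, 16, 21 and 23 FPKM in the cancers (-1.27, adjusted p = 0.0059), with -0.33 by TPM. Of 4 tested of 6 listed, 1 was higher and 1 lower (median 0.46), and 2 were higher and 0 lower by TPM (3 and 0 at an unadjusted p under 0.05).

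Transcription factors known to act on apolipoprotein genes were listed with 31 members. Of the 27 tested, 2 were higher and 12 lower by FPKM (median -0.57), and 11 were higher and 3 lower by TPM, where 50% of all genes were higher. Among those lower on both scales were Gata4 (120, 109 and 111 FPKM in controls, 20, 47, 22, 33 and 21 in cancers, -2.03, adjusted p = 0.0029) and the forkhead factor Foxa3 (-1.67, adjusted p = 0.0059). Pparg, the lipid-sensing nuclear receptor, was at -2.41 (adjusted p = 0.032) by FPKM and -1.51 (adjusted p = 0.059) by TPM, and the coactivator Ppargc1b at -1.68 (adjusted p = 0.019) and -1.18 (adjusted p = 0.095). Hnf4a, an activator of many apolipoprotein promoters, was at 58, 44 and 50 FPKM in the controls and 15, 32, 15, 18 and 26 FPKM in the cancers (-1.27, adjusted p = 0.012), with -0.33 by TPM. Those that rose were Prox1 (0 in each control and 1 to 11 FPKM in cancers, 2.15, adjusted p = 0.019) and Nr1h3, the oxysterol receptor LXR alpha that activates Apoe and the efflux transporters (1 FPKM in each control and 3 to 5 in cancers, 1.18, adjusted p = 0.0034). Prox1 met the filter only through the cancers, so its direction was fixed by the filter. Creb3l3, which activates Apoa4 and Apoc2, was at 1.21 (adjusted p = 0.085) by FPKM and 2.06 (adjusted p = 0.020) by TPM.

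**Figure D4:**
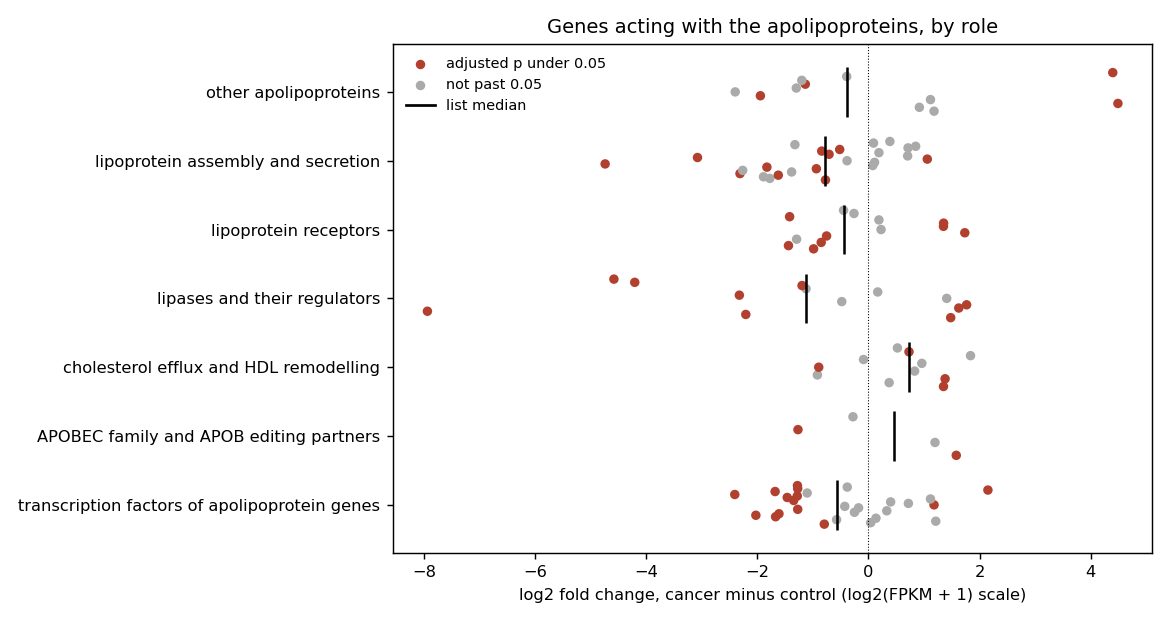
Log2 difference, cancer minus control, on the log2(FPKM + 1) scale for each tested gene of 7 lists, 1 point per gene. Red points have a limma adjusted p under 0.05 over all genes tested, grey points do not, and vertical bars are list medians, which run from -1.12 for lipases to 0.73 for cholesterol efflux.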

How the data were processed

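RNA was sequenced from 5 SCJ cancers and 3 control SCJ tissues. The authors trimmed reads with cutadapt 1.8, aligned them to mm10 with TopHat2 2.0.13 and made FPKM with Cuffquant and Cuffnorm 2.2.1. The deposited values are FPKM rounded to whole numbers (100% whole) and were treated as a score on a linear scale, not as counts, so depth per library is unknown and no counting intervals are given. The labels and the methods name different library kits. No label gives a batch.

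The 14357 genes with 1 FPKM or more in 3 or more samples entered a linear model of log2(FPKM + 1) in limma 3.58.1 under R 4.3.3 (functions lmFit and eBayes, the latter with a mean-variance trend), and p-values were adjusted by Benjamini-Hochberg over all of them. Exact permutation tests used the 56 splits of 8 samples into 5 and 3. A fold change on this scale understates the change of low genes. A gene at 0 in each control could meet the filter on low levels only through the cancers, which fixed its direction in advance. A1cf, Msr1, Prox1 and Tat were such genes among those named, and their p-values are no support for that direction. Scripts were tested on simulated data. The 10 genes and all lists were chosen with earlier results of these data known, so counts over them are descriptions. Named from each list were up to 4 genes past the threshold with the largest difference in each direction, and the central genes Lrp1, Scarb1, Sar1b, P4hb, A1cf, Rbm47, Abca1, Hnf4a, Creb3l3 and Nr1h3; from the marker lists, genes at the highest level or at 0, and Alb, Fga, Fgg, C1qa, Trem2, Atp4b, Mogat2 and the genes behind small counts were named after their values were seen. Pattern likeness used genes with a mean FPKM of at least 5. Some genes that this rule names are not reported here. Alternatives were TPM, quantile normalization, pseudocounts of 0.1 and 0.01, other filters, array weights, a constant variance prior, the replicate number as a block, each sample left out, and cancers 1 and 5 left out together.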

Additional observations from a re-analysis of the deposited data

Results flagged for a closer look

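Cancer 5 stood apart from the other cancers in 4 of 18 groups of values examined, where chance alone would flag about 0.9 (1 group in 20). For the Apoc3 level, the gap between cancer 5 and the next cancer was 0.798 of the whole range on the log2(FPKM + 1) scale, above the critical 0.710 for 5 samples. For the shares in the summed apolipoprotein FPKM, the gaps were 0.887 for Apoa2, 0.813 for Apob and 0.959 for Apoc3, with cancer 5 highest in each. The 4 values come from 1 sample and shares within it are linked, so they are not 4 separate occurrences.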

How the results depend on the processing

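Of 193 recomputed values of the 10 genes and their shares, 165 kept direction and side of the threshold, 8 reversed, 9 came to pass and 11 no longer passed, and of 126 recomputed counts over lists, 85 stayed within 1.5 times and 41 did not. The depth behind the values is unknown, and rounding limits genes of a few FPKM such as Apoc2 and Mttp. Of all genes, 4948 passed, with 7704 by TPM (7176 higher, 528 lower, against 2326 and 2622 by FPKM), 8148 with array weights, and 2490 to 5252 on leaving out each sample, lowest without a control (2490, 2643 and 2815). With quantile normalization 1891 rose and 1902 fell, and with a mean FPKM of at least 5, 1244 and 2275. Of the 10 genes, 2 passed, but 1 with pseudocounts of 0.1 or 0.01, 4 with a mean FPKM of at least 5, 6 with array weights and 1 to 2 on leaving out each sample.

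Apoa1 passed with a mean FPKM of at least 5 (-3.26, adjusted p = 0.042, fewer genes tested) and with array weights (-3.59), and ran from -3.98 to -2.54 over samples left out. Array weights also carried Apoa4 (-3.01), Apobec1 (-1.18) and Mttp (1.38) past the threshold, the mean filter carried Apobec1 (-1.26, adjusted p = 0.040), and TPM Mttp (1.76). Apob lost its call by TPM (-1.93) and with pseudocounts of 0.1 (-3.44) and 0.01 (-4.15), and ran from -3.03 to -2.05 over samples left out. Apoa2 turned negative with pseudocounts of 0.1 (-0.51) and 0.01 (-1.79) and without cancers 1 and 5 (-0.14), an alternative chosen after seeing the data, and Apoc2 turned positive by TPM (0.26). On leaving out each sample, Apoa2 ran from -0.52 to 0.92, Apoc3 from -0.17 to 1.07 and Apobec1 from -1.72 to -0.71, Apoc1 from -1.47 to -0.47 and Apoa4 from -3.02 to -1.59. The Apoa1 share differed by -65.6 to -47.3 percentage points and the Apoe share by 43.8 to 62.6. The cause of these shifts was not tested.

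Same-numbered cancers and controls did not deviate together (correlations of deviations -0.021, -0.19 and -0.10). These correlations cannot tell whether the numbers pair the samples, because differences in tissue content among the cancers could hide a shared deviation. The replicate block, over cancers 1 to 3 and controls 1 to 3, called 1580 genes (1005 higher, 575 lower), 1 of the 10 genes (Apob), Apoe at 1.99 (adjusted p = 0.073), Apoa2 at -0.81 and Apoc3 at -0.33. Under the block the lists held 2 further apolipoproteins, 1 assembly gene, 2 receptors, 4 lipases, 1 efflux gene, 1 editing partner and 4 transcription factors.

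For the lists, quantile normalization called 7 assembly genes, 5 receptors and 2 efflux genes. TPM called 5 receptors, all higher. Array weights gave 8 further apolipoproteins and 18 assembly genes. A pseudocount of 0.01 called 5 lipases, and a mean FPKM of at least 5 called 4 lipases, 1 efflux gene and 1 editing partner. Without cancers 1 and 5 the counts were 4 assembly genes, 5 lipases and 1 efflux gene. Leaving out each sample gave 2 to 6 further apolipoproteins, 3 to 12 assembly genes, 4 to 8 receptors, 4 to 10 lipases, 0 to 4 efflux genes, 2 to 3 editing partners and 7 to 16 transcription factors, with the low ends mostly where a control was left out.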
